A study of Sus scrofa with 30 samples.

Results

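Endothelial and angiogenic genes were followed through the sow mammary gland, from ductal growth in pregnancy to the days after weaning. The set held 10 genes chosen by name: the surface and junction genes PECAM1, CDH5 and CLDN5, the receptors KDR, FLT1 and TEK, the ligands VEGFA and ANGPT1, the storage protein VWF and the caveolar protein CAV1. A gene's level was the sum of its transcripts in each sample, with transcript identifiers matched to the RefSeq annotation of the pig genome Sscrofa11.1. Of the 10 genes, 9 had rows in the transcript table, with 21 of its 61773 transcripts, and they were 9 of the 26012 features tested (14951 reference genes and 11061 loci assembled from the reads). CDH5, which encodes VE-cadherin, had no row under its RefSeq identifier and was not analysed here. Only 1 of 5 annotated transcripts of FLT1, 3 of 7 of TEK and 2 of 6 of ANGPT1 had rows. The levels of these genes leave the others out.

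The tissue was parenchyma of the third gland on the left side of related, multiparous Danish Landrace×Yorkshire sows, a different set of 6 sows at each of 5 stages, with no treatment. Pregnant sows were sampled at 70 days (MG) or 110 days (LG) of gestation, lactating sows 2 days (EL) or 10 days (PL, peak lactation) after farrowing, and weaned sows 2 days after the litter was removed (W2). In the sample labels the stage names of the EL and MG samples were exchanged relative to the sample titles, and the titles, which also head the table's columns, were followed here. Milk protein transcripts other than PAEP made up 6.40% to 12.1% of the units in the samples titled EL and 1.19% to 2.95% in those titled MG. In each stage 3 of the 6 samples lay on the mean of the other 3, and differed from one another by a median of at most 1.80% to 1.85% over transcripts, against 19.6% to 59.8% between the others, so that 15 samples, 3 per stage, were counted and n was 3 in every stage.

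Blood vessels of the mammary gland branch and surround the ducts and alveoli during pregnancy and carry the substrates from which milk is made. VEGFA is the main growth signal for endothelial cells: it acts through KDR, the receptor that drives their division and migration, and is also bound by FLT1, which largely acts as a trap for the ligand. ANGPT1, made by the pericytes and stromal cells around the vessel, activates the receptor TEK and keeps vessels quiescent and tight, while PECAM1, CDH5 and CLDN5 hold neighbouring endothelial cells together.

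Values are given in units of TPM, a length-scaled share of all transcripts: the authors called them FPKM, but each of the 15 samples added up to between 997480 and 998888 units, as TPM values do, so that a rise of some transcripts lowers all others in the same sample. Milk protein transcripts other than PAEP made up 9.14% to 28.5% of the units at PL and 0.579% to 0.816% at W2. With PAEP counted, the shares were 22.6% to 40.8% at PL and 10.5% to 13.9% at W2. PL replicate 2 stood apart, with 34065 transcripts above 0 against 39524 to 46114 in the other 14 samples. It also held the 28.5% share of milk protein other than PAEP. Differences were tested with limma on log2(units + 0.5) with all 5 stages in 1 fit, and a feature was called at a Benjamini-Hochberg adjusted p below 0.05 over all 26012 features. The median of all features shifted by −0.57 on the log2 scale in PL vs MG, by −0.45 in PL vs LG, by −0.22 in PL vs EL and by 0.68 in W2 vs PL, against which each change is to be read. With milk protein (PAEP included), SAA3 and mitochondrial transcripts removed, the shift was −0.26 in PL vs MG and 0.35 in W2 vs PL. The cause of the shift was not tested.

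The genes ranged from highly to weakly expressed. Over the 15 samples CAV1 averaged 139 units and PECAM1 77.2 units, which placed them at ranks 460 and 863 of the 14951 reference genes. KDR averaged 19.3 units, VWF 17.1, VEGFA 14.8, CLDN5 8.28, FLT1 5.99 and TEK 5.29, and ANGPT1 was the lowest at 1.44 units (rank 11491). All 9 were measured above 0 in every sample but ANGPT1 in PL replicate 2. The further endothelial markers TIE1, ESAM, EGFL7 and ROBO4 were present at every stage, with stage means from 1.33 to 25.7 units, while EMCN had no row under its RefSeq identifier.

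**Figure D1:**
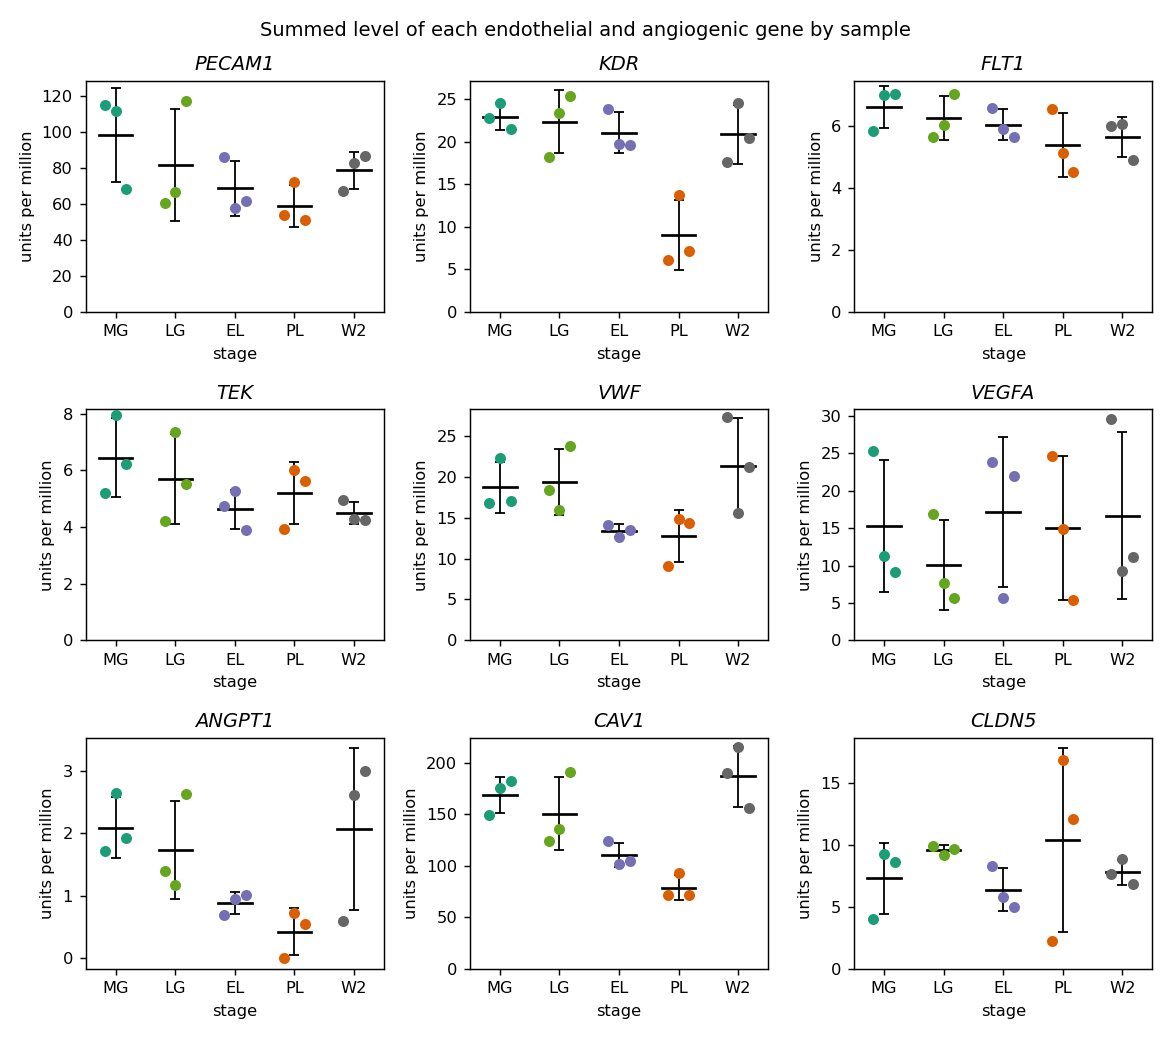
Summed level of each gene in TPM units (y axes, starting at 0 except for a small margin under ANGPT1) in the 3 counted samples of each stage (points), with the stage mean (horizontal line) and SD (error bar). KDR and CAV1 lie lower in all 3 PL samples than in the other 12, FLT1 and TEK stay within narrow ranges, and VEGFA and CLDN5 spread widely within stages.

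KDR (chromosome 8, 41809116 to 41856379), the main signalling receptor for VEGFA, was at a steady level in 4 stages and lower at peak lactation. It measured 22.7, 24.6 and 21.5 units in MG replicates 1, 3 and 6, and 18.2, 23.4 and 25.4 units in LG replicates 1, 3 and 4. It measured 23.8, 19.7 and 19.7 units in EL replicates 3, 4 and 6, and 17.7, 24.5 and 20.4 units in W2 replicates 2, 3 and 6. At PL it measured 6.10, 13.8 and 7.18 units in replicates 2, 3 and 6. Every PL sample was below every other sample, PL replicate 3 was the highest of the PL samples, and the other 4 stages overlapped one another. The stage means ran from 23.0 ± 1.55 units (SD, n = 3) at MG through 22.4 ± 3.71 at LG, 21.1 ± 2.39 at EL and 20.9 ± 3.45 at W2, which did not differ beyond their spread, down to 9.02 ± 4.15 at PL.

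KDR fell by 1.38 ± 0.26 (SE) on the log2 scale in PL vs MG, a 2.61-fold lower level (limma adjusted p = 0.00299). It was 2.52-fold lower in PL vs LG (limma adjusted p = 0.00590) and 2.39-fold lower in PL vs EL (limma adjusted p = 0.0170), and it rose 2.36-fold in W2 vs PL (limma adjusted p = 0.00400). These 4 comparisons share the PL samples. The changes at PL exceeded the shift of all features by 0.81, 0.89 and 1.04 on the log2 scale, and the rise at W2 by 0.56. An exact permutation test, two-sided, of the 3 PL samples against the other 12 gave p = 0.0022, the smallest that this number of samples allows. This p is not adjusted for the number of genes or stages. All 3 PL samples lay below all 12 others in 11.3% of all features, so that such an order was common. Without PL replicate 2 KDR stayed called in all 4 comparisons, at −1.16 in PL vs MG and 1.02 in W2 vs PL on the log2 scale. The call in PL vs EL was lost without EL replicate 3 (limma adjusted p = 0.0770) or EL replicate 6 (adjusted p = 0.0519). With only the samples of the stages compared in the fit, KDR was called in none of the 4 comparisons (adjusted p = 0.0667, 0.115, 0.259 and 0.0731 in the order above). In tissue of mixed cells, fewer endothelial cells and less KDR RNA per endothelial cell cannot be told apart. For the genes below, some of which other cells also express, the share of the expressing cells and the RNA per cell cannot be told apart either.

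FLT1 (chromosome 11, 5620698 to 5797095), the other VEGFA receptor, hardly varied in the 1 transcript that had a row, of 5 annotated. Its highest sample was 1.55 times its lowest, from 4.52 units in PL replicate 6 to 7.02 units in LG replicate 4. The samples read 5.83, 7.00 and 7.01 units at MG, 6.53, 5.11 and 4.52 at PL and 6.00, 6.05 and 4.91 at W2, in the order of their replicate numbers. These stages overlapped, and FLT1 passed in none of the 10 pairwise comparisons, with −0.28 ± 0.19 (SE, log2) in PL vs MG and 0.07 ± 0.19 in W2 vs PL. Its SD within stages was 0.17 on the log2 scale, and only 6.70% of the 8154 reference genes with a mean of at least 5 units had a smaller one.

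TEK (chromosome 1, 195938177 to 196052294), the receptor for the angiopoietins, ran between 3.90 units in EL replicate 6 and 7.94 units in MG replicate 3. It read 5.19, 7.94 and 6.21 units at MG, 3.94, 6.01 and 5.63 at PL and 4.94, 4.27 and 4.24 at W2. All W2 samples were below all MG samples, which was seen in 2.21% of all features for W2 vs MG, but the difference of −0.46 ± 0.25 (SE, log2) was not called (limma adjusted p = 1). Where the units of each sample were rescaled by median ratios, TEK was called lower in W2 vs PL, at −0.84 (limma adjusted p = 0.0252), against −0.17 as deposited (limma adjusted p = 0.622).

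VEGFA (chromosome 7, 38746393 to 38762282), the ligand of KDR and FLT1, differed more among sows of a stage than among stages. It read 25.4, 11.3 and 9.14 units at MG, 16.9, 7.60 and 5.66 at LG and 23.8, 5.69 and 22.0 at EL. It read 24.6, 14.9 and 5.34 units at PL and 29.6, 9.32 and 11.2 at W2. Each stage held a sample above 16 units and a sample below 10, and all stages overlapped. The SD within stages was 0.93 on the log2 scale, larger than that of 87.5% of the 8154 genes, and VEGFA was called in no comparison. The exact permutation test, two-sided, of PL against the other 12 samples gave p = 0.978.

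ANGPT1 (chromosome 4, 29925203 to 30233434), the ligand that stabilises vessels through TEK, was the lowest of the genes. It read 1.72, 2.64 and 1.92 units at MG, 1.40, 1.18 and 2.63 at LG and 0.691, 0.951 and 1.01 at EL. At PL it was listed at 0 in replicate 2 and read 0.727 and 0.549 units in replicates 3 and 6, and at W2 it read 0.591, 2.62 and 2.99 units. All PL samples were below all MG and LG samples, while EL replicate 3 and W2 replicate 2 lay within the PL range. ANGPT1 was called lower in PL vs MG, at −1.57 ± 0.47 (SE, log2; limma adjusted p = 0.0280), and higher in W2 vs PL, at 1.40 ± 0.47 (limma adjusted p = 0.0360). Without PL replicate 2, the sample at 0, the differences were −1.18 (limma adjusted p = 0.0995) and 1.01 (limma adjusted p = 0.135), so that neither was called. At these levels the fold depends on the added 0.5 units.

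PECAM1 (chromosome 12, 14667643 to 14723296), an adhesion protein of the endothelial cell border, was not called in any comparison. It read 115.3, 111.6 and 68.2 units at MG, 60.5, 66.7 and 117.2 at LG and 86.4, 57.8 and 61.7 at EL. It read 53.8, 72.3 and 50.9 units at PL and 67.0, 82.6 and 86.5 at W2. The samples of PL overlapped those of every other stage, and the highest samples were MG replicate 1, MG replicate 3 and LG replicate 4. PECAM1 changed by −0.71 ± 0.28 (SE, log2; limma adjusted p = 0.0810) in PL vs MG, of which −0.57 was the shift of all features, and by 0.42 ± 0.28 (limma adjusted p = 0.266) in W2 vs PL.

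CLDN5 (chromosome 14, 51161490 to 51162382), the tight junction claudin of endothelium, had both its lowest and its highest value at PL. It read 2.22, 16.8 and 12.1 units in PL replicates 2, 3 and 6, against 9.92, 9.15 and 9.62 at LG and 7.67, 8.85 and 6.81 at W2. At MG it read 4.03, 9.21 and 8.61 units and at EL 8.32, 5.80 and 5.01. MG replicate 1 was the lowest sample outside PL. PL replicate 2 was below, and PL replicates 3 and 6 were above, all 12 samples of the other stages. With all 3 PL samples the difference in PL vs MG was 0.19 ± 0.54 (SE, log2; limma adjusted p = 0.840). Without PL replicate 2 it was 1.00 ± 0.32 (limma adjusted p = 0.0481), and 1.46 ± 0.29 with median ratio scaling as well (adjusted p = 0.00740), so that the call depends on 1 PL library. The difference as deposited turned sign in 3 of the 15 fits that each left out 1 sample.

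CAV1 (chromosome 18, 29648120 to 29682451), the coat protein of caveolae in endothelial cells and also in adipocytes, fibroblasts and myoepithelium, followed the order W2, MG, LG, EL, PL. It read 148.9, 175.5 and 181.8 units at MG, 124.5, 136.1 and 191.3 at LG and 123.8, 102.2 and 105.1 at EL. It read 71.97, 92.7 and 71.4 units at PL and 190.0, 214.9 and 155.9 at W2. Every PL sample was below every other sample, every EL sample was below every LG and MG sample, and W2, MG and LG overlapped. The stage means were 187 ± 29.6 units (SD, n = 3) at W2, 169 ± 17.5 at MG, 151 ± 35.7 at LG, 110 ± 11.7 at EL and 78.7 ± 12.1 at PL, and no 2 neighbours in this order differed in the limma test (adjusted p = 0.168 for PL vs EL).

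CAV1 was 2.14-fold lower in PL vs MG (limma adjusted p = 0.00179) and 1.89-fold lower in PL vs LG (limma adjusted p = 0.00769), and it rose 2.36-fold in W2 vs PL (limma adjusted p = 0.000664). It exceeded the shift of all features by 0.53 and 0.47 on the log2 scale in the first 2 comparisons and by 0.56 at W2. The exact permutation test, two-sided, of PL against the other 12 samples gave the smallest possible p of 0.0022, again unadjusted. Of the 9 genes, KDR and CAV1 had all PL samples below all others, a pattern seen in 11.3% of all features.

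VWF (chromosome 5, 64516627 to 64655938), the clotting factor that endothelial cells store in Weibel-Palade bodies, read 16.8, 22.3 and 17.0 units at MG, 18.4, 15.9 and 23.8 at LG and 14.1, 12.6 and 13.5 at EL. It read 9.07, 14.9 and 14.3 units at PL and 27.3, 15.5 and 21.2 at W2. The EL and PL samples were all below the MG, LG and W2 samples, and EL and PL overlapped. VWF was called in W2 vs PL only, at 0.72 ± 0.25 (SE, log2; limma adjusted p = 0.0432) against a shift of all features of 0.68, and without PL replicate 2 it was 0.50 (limma adjusted p = 0.141).

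Over the 10 pairwise comparisons the calls lay in the 4 comparisons with PL. In PL vs MG 3 of the 9 genes were called, all lower (KDR, ANGPT1 and CAV1), where 25.2% of all features were called and 23% were lower. In PL vs LG 2 genes were called (KDR and CAV1), where 14.7% of all features were, and in PL vs EL 1 gene (KDR), where 4.62% were. In W2 vs PL 4 genes were called, all higher (KDR, VWF, ANGPT1 and CAV1), where 32.8% of all features were called and 30.4% were higher. Over 9 genes, both counts lie near these shares. Without PL replicate 2, limma called 3 genes in PL vs MG (KDR and CAV1 lower, CLDN5 higher), against 20.5% of all features, and 2 in W2 vs PL (KDR and CAV1), against 26.8%. Without any overlap of samples, 4 genes were lower in PL vs MG (KDR, VWF, ANGPT1 and CAV1) and in PL vs LG, where 35.9% and 30.5% of all features were. There were 2 such genes in PL vs EL (KDR and CAV1; 15.8% of all features), and 3 were higher in W2 vs PL (KDR, VWF and CAV1; 40.6%). Samples were also separate at EL: 3 genes were lower in EL vs MG (VWF, ANGPT1 and CAV1; 27.5% of all features), 4 in EL vs LG (those 3 and CLDN5; 16%), and 2 were higher in W2 vs EL (VWF and CAV1; 35.5%). In PL against the mean of the other 4 stages the genes called were KDR, ANGPT1 and CAV1 (30.3% of all features), and in W2 against the other 4 it was CAV1 (2.68%; limma adjusted p = 0.0493). That call of CAV1 was lost when any of 10 of the 15 samples was left out, and under median ratio scaling and quantile normalisation. The limma F test over the 5 stages called KDR (adjusted p = 0.0101) and CAV1 (adjusted p = 0.00373), where it called 18.3% of all features.

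In the 6 pairwise comparisons without PL, limma called 0 of the 9 genes. The share of all features called there was 0.0115% for LG vs MG and for W2 vs MG, 0.0269% for EL vs MG, 0.0154% for EL vs LG, 0.0346% for W2 vs LG and 0.554% for W2 vs EL. At an unadjusted p below 0.05 there was 1 gene in EL vs MG, 1 in EL vs LG and 2 in W2 vs EL, and 0 in the other 3. Of all 26012 features, 4138, 1609 and 6531 had such a p in EL vs MG, EL vs LG and W2 vs EL. In LG vs MG, W2 vs MG and W2 vs LG 1153, 804 and 1969 features had one. Against the mean of the other 4 stages, limma called 0 genes for MG, LG and EL, where it called 0.0384%, 0.0346% and 0.0154% of all features. An unadjusted p below 0.05 was found for 1, 0 and 1 genes, and for 3672, 1332 and 2308 of all 26012 features. The study also asked for a 4-fold change, 2 or more on the log2 scale: 0 of the 9 genes reached it in a called comparison, against 3.96% of all features in PL vs MG and 5.22% in W2 vs PL.

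How the samples were scaled to one another decided which of these genes were called. Median ratio scaling over 2698 transcripts, with factors from 0.567 in PL replicate 2 to 1.28 in W2 replicate 6, brought the shift of all features to −0.04 in PL vs MG and 0.10 in W2 vs PL. KDR was then the gene called at PL: it fell by 0.74 on the log2 scale in PL vs MG (limma adjusted p = 0.0335), by 0.86 in PL vs LG (adjusted p = 0.0202) and by 0.94 in PL vs EL (adjusted p = 0.0197), where limma called 11%, 8.95% and 5.23% of all features. CAV1 was −0.43 in PL vs MG (limma adjusted p = 0.143) and 0.51 in W2 vs PL (adjusted p = 0.0766). In W2 vs PL, KDR was 0.54 (limma adjusted p = 0.103), and TEK was the gene called, where 13.2% of all features were. FLT1 and TEK in PL vs MG turned from below 0 as deposited to 0.34 and 0.33 under this scaling, and PECAM1 in W2 vs PL turned from 0.42 to −0.31.

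**Figure D2:**
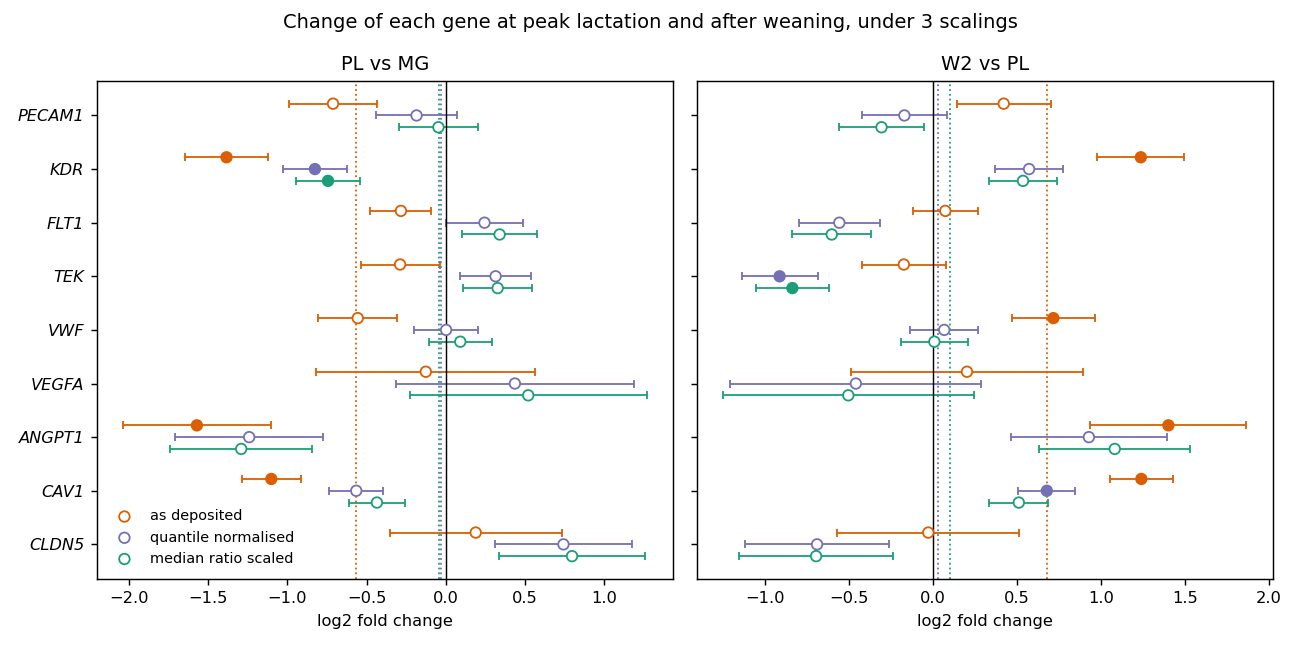
Log2 fold change with its SE (x axes) of each gene in PL vs MG and W2 vs PL, as deposited, after quantile normalisation and after median ratio scaling. Filled points passed an adjusted p below 0.05, open points did not, and dotted lines give the median of all features under each scaling. KDR in PL vs MG is filled under all 3 scalings, while CAV1 and ANGPT1 are filled there only as deposited.

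Ratios between genes of the same sample do not depend on that scaling. PECAM1, a general endothelial marker, served as the denominator in place of CDH5. Whether PECAM1 RNA came from endothelial cells only was not tested, so that these ratios are not levels per endothelial cell. The ratio of KDR to PECAM1 was 0.113, 0.190 and 0.141 in PL replicates 2, 3 and 6, and it ran from 0.197 to 0.351 in the other 12 samples. All PL samples were thus below all others, by 1.89-fold on average, and by −0.74 on the log2 scale without PL replicate 2 against −0.92 with it. The ratio of FLT1 to KDR showed the reverse order: it was 1.07, 0.371 and 0.629 in the PL samples and 0.241 to 0.340 in the other 12, a 2.24-fold higher mean at PL. The ratio of CAV1 to PECAM1 was 1.28 to 1.40 at PL and 1.29 to 2.84 in the other 12 samples, of which MG replicate 1 lay within the PL range. The ratio of TEK to PECAM1 was 0.0733 to 0.110 at PL, against 0.0450 to 0.110 elsewhere, so that these groups overlapped. Ratios are a description, with no test.

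**Figure D3:**
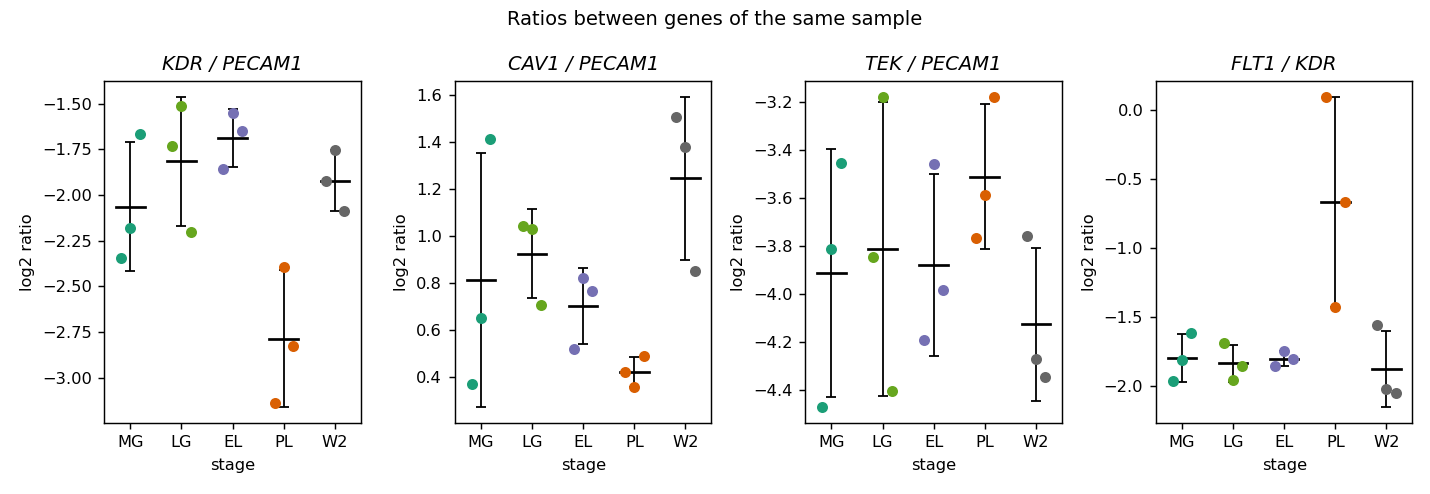
Log2 ratio of the summed levels of 2 genes in the same sample (y axes) for the 3 counted samples of each stage (points), with the stage mean (line) and SD (error bar). The 3 PL samples lie below all others for KDR to PECAM1 and above all others for FLT1 to KDR, while CAV1 to PECAM1 and TEK to PECAM1 overlap between stages.

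A sum does not show which transcript carried a gene. KDR had 2 transcripts: XM_003128987.6 held 62.6% of its units and XM_013997943.2 held 37.4%. XM_013997943.2 read 5.86 to 12.5 units at MG and 6.65 to 10.2 units at W2, against 0.928, 3.49 and 2.89 units in PL replicates 2, 3 and 6, with no overlap. It fell by 1.72 ± 0.40 (SE) on the log2 scale in PL vs MG (limma adjusted p = 0.0282, where 4.28% of the 61773 transcripts were called), by 1.74 in PL vs LG (adjusted p = 0.0392, 2.26%) and rose by 1.75 in W2 vs PL (adjusted p = 0.0198, 7.13%). XM_003128987.6, the larger of the pair, was −1.09 ± 0.38 in PL vs MG (limma adjusted p = 0.135). Both transcripts were lower on average at PL than at MG, and whether they fell by different amounts was not tested. Under median ratio scaling, quantile normalisation or removal of the abundant transcripts 0 transcripts of the 9 genes were called in a pairwise comparison, XM_013997943.2 included.

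For CAV1, NM_001348935.1 held 74.2% of the units and rose by 1.06 in W2 vs PL (limma adjusted p = 0.0459). In MG replicate 3 and W2 replicate 3 a large part of the CAV1 units lay in other transcripts, with 57.0 and 25.8 units in NM_001348936.1, against at most 3.50 units of it in the other 13 samples. The summed level of these samples, 175.5 and 214.9 units, stayed close to that of the other samples of their stage.

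VWF was split in another way. In EL replicate 4 and PL replicate 2 all of its units, 12.6 and 9.07, were in XM_021091196.1 and NM_001246221.1 was listed at 0, whereas in the other 13 samples XM_021091196.1 read at most 0.179 units. For VEGFA, NM_214084.1 ranged from 0.0503 units in PL replicate 6 to 21.9 units in W2 replicate 2, and XM_013977975.1 from 1.67 to 12.8 units. Over the 21 transcripts, 2 were called in at least 1 pairwise comparison, and 0 also reached an absolute log2 fold change of 2, against 1.76% of all transcripts in PL vs MG and 2.84% in W2 vs PL.

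**Figure D4:**
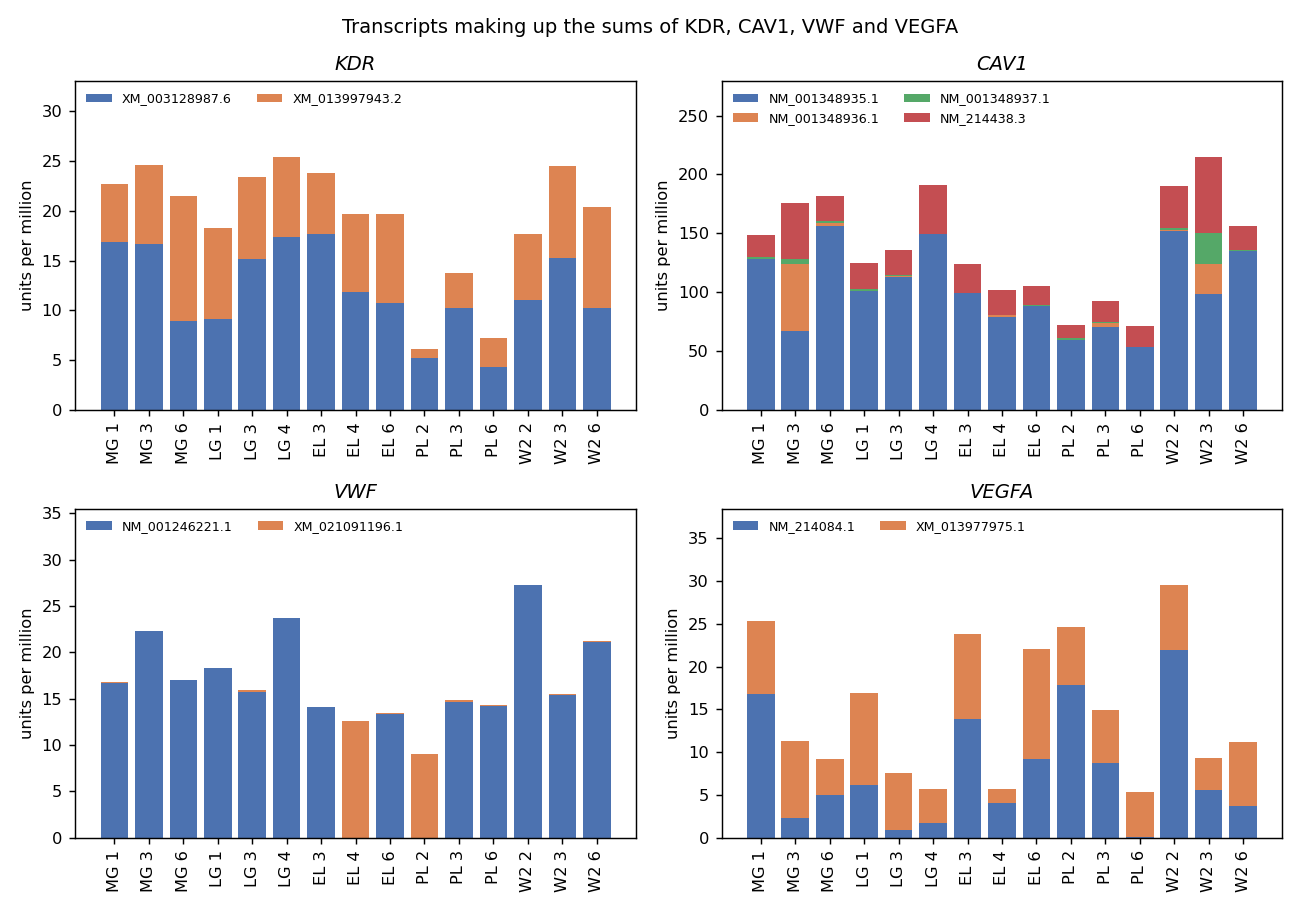
Level in TPM units of each annotated transcript (stacked bars, adding up to the gene's sum) of KDR, CAV1, VWF and VEGFA in the 15 counted samples. The KDR transcript XM_013997943.2 is lower in the 3 PL samples than in all others, while XM_003128987.6 overlaps between stages, and VWF changes from NM_001246221.1 to XM_021091196.1 in EL replicate 4 and PL replicate 2.

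The wider vascular program was read from 9 lists of named genes, 83 of which were tested besides the 9 above. In PL vs MG 27 of the 83 were lower and 1 was higher, which is 33.7% called against 25.2% of all features, and their median was −0.68 against −0.57. In W2 vs PL 33 were higher and 1 was lower, 41.0% against 32.8%, with a median of 0.83 against 0.68. Under median ratio scaling 5 were lower and 2 higher in PL vs MG, 8.43% called against 11% of all features, with a median of −0.08 against −0.04. In W2 vs PL 10 were then higher and 4 lower, 16.9% against 13.2%, with a median of 0.12 against 0.10. Without PL replicate 2 the shares of the list were 31.3% and 36.1%, against 20.5% and 26.8% of all features.

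Among the ligands and receptors, 3 of 6 ligands and 3 of 9 receptors were lower in PL vs MG, and the same numbers were higher in W2 vs PL. Of all features 25.2% and 32.8% were called there. After median ratio scaling 1 ligand and 2 receptors were lower in PL vs MG, and 0 ligands and 2 receptors were higher in W2 vs PL. NRP1, the co-receptor that presents VEGFA to KDR, read 34.7, 35.2 and 34.1 units at MG, 6.65, 4.47 and 11.3 at PL and 28.6, 32.2 and 42.7 at W2. The PL samples were below all MG and W2 samples, and NRP1 fell by 2.23 ± 0.32 (SE, log2; limma adjusted p = 0.000675) in PL vs MG and rose by 2.21 in W2 vs PL. It was also called under median ratio scaling, at −1.59 and 1.51. APLN, the ligand apelin of sprouting endothelium, went from a mean of 90.5 units at MG to 34.1 at PL and 84.4 at W2, and its receptor APLNR from 42.8 to 13.5 and 38.4 units. ANGPT2, which competes with ANGPT1 for TEK, went from 2.38 to 0.844 and 2.82 units, and VEGFD, a ligand of KDR and FLT4, from 13.4 to 4.86 and 11.8 units. All 4 were called in both comparisons as deposited, and after median ratio scaling APLN (−0.74) and APLNR (−1.13) were called in PL vs MG but not in W2 vs PL. ROBO4, a guidance receptor of endothelium, was 0.150, 0.238 and 3.59 units at PL against 4.45 to 10.4 at MG and 11.9 to 13.5 at W2, with no overlap. The spread at PL was wide. At EL it read 0.137, 3.37 and 5.46 units, so that EL and PL overlapped. ROBO4 was called in both comparisons as deposited. After median ratio scaling it was called in W2 vs PL (limma adjusted p = 0.0359) but not in PL vs MG (adjusted p = 0.102).

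Of 12 junction and surface genes, 5 were lower in PL vs MG and 7 higher in W2 vs PL, where 25.2% and 32.8% of all features were called. After median ratio scaling 1 was lower in PL vs MG, and 2 were higher and 1 was lower in W2 vs PL. MCAM, an adhesion protein of endothelium and pericytes, read 18.5, 22.9 and 21.3 units at MG, 4.85, 7.79 and 6.06 at PL and 20.3, 24.7 and 24.0 at W2. Its PL samples were below all others of these stages, and it was −1.05 in PL vs MG and 1.13 in W2 vs PL after median ratio scaling, both called. JAM3, a junctional adhesion molecule, and ECSCR, a surface protein of endothelial cells, were also called in both comparisons as deposited. After median ratio scaling ECSCR was called in neither (limma adjusted p = 0.0624 and 0.123). JAM3 was then called in W2 vs PL (limma adjusted p = 0.0409) but not in PL vs MG (adjusted p = 0.0875). EGFL7, a secreted endothelial protein, rose by 1.41 on the log2 scale in W2 vs PL (limma adjusted p = 0.0493). After median ratio scaling this became 0.71 (limma adjusted p = 0.348), and it was not called. PLVAP, the diaphragm protein of endothelial fenestrae, was picked out after its values were seen: its stage means ran from 54.96 to 63.5 units and it was not called as deposited.

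Of 14 endothelial transcription factors, 8 were lower in PL vs MG and 8 higher in W2 vs PL, or 57.1% each, against 25.2% and 32.8% of all features. After median ratio scaling 1 and 3 of the 14 were called, against 11% and 13.2%. NR2F2, which specifies venous identity, had stage means of 16.9 units at MG, 5.86 at PL and 24.9 at W2, and was called under median ratio scaling as well, at −0.93 and 1.43. FLI1, an ETS factor of endothelial genes, fell by 1.29 on the log2 scale in PL vs MG, HHEX by 1.32 and the flow-responsive KLF2 by 1.39. In W2 vs PL FLI1 and HHEX rose by 1.41 and 1.64, and both were called there after median ratio scaling too, whereas KLF2 was not called. In PL vs MG that scaling gave −0.67 for FLI1 (limma adjusted p = 0.0536), −0.74 for HHEX (adjusted p = 0.123) and −0.79 for KLF2 (adjusted p = 0.243), none called.

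Of 7 caveolar genes besides CAV1, 1 was lower in PL vs MG (CAVIN3) and 4 were higher in W2 vs PL (CAVIN3, PACSIN2, CAVIN1 and CAV2), and of 10 hypoxia genes 2 and 3 were. Of all features 25.2% and 32.8% were called there. After median ratio scaling 0 of the caveolar genes were called in either comparison. Of the hypoxia genes 1 was then higher in PL vs MG and 1 was lower in W2 vs PL. HIF1A, the oxygen-regulated factor upstream of VEGFA, had means of 51.0 units at MG, 32.2 at PL and 57.7 at W2. Its change of −0.67 in PL vs MG was close to the shift of all features and was −0.0049 under median ratio scaling. HIF1AN was also called, at −0.88 in PL vs MG and 0.96 in W2 vs PL, and VHL at 1.00 in W2 vs PL. After median ratio scaling HIF1A, HIF1AN and VHL were called in neither comparison. After quantile normalisation HIF1AN was called in both (limma adjusted p = 0.0366 and 0.0443). Of 8 angiogenesis inhibitors and of 7 genes of the Weibel-Palade and coagulation list, 1 each was lower in PL vs MG and higher in W2 vs PL. In these cases the genes were COL18A1, the precursor of endostatin, and ANGPT2. After median ratio scaling COL18A1 was called in W2 vs PL (limma adjusted p = 0.0155) but not in PL vs MG (adjusted p = 0.156). ANGPT2 was then called in neither (limma adjusted p = 0.158 in PL vs MG and 0.0803 in W2 vs PL).

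Among 11 genes of Notch signalling and vascular tone, 4 were lower and 1 was higher in PL vs MG. In W2 vs PL 4 were higher and 1 was lower. Of all features 25.2% and 32.8% were called there. After median ratio scaling 0 were lower and 1 was higher in PL vs MG, and 2 were higher and 1 was lower in W2 vs PL. The gene that was higher in PL vs MG and lower in W2 vs PL was NOS3, the endothelial nitric oxide synthase. It read 4.20, 5.04 and 4.35 units at MG, 6.54, 10.7 and 9.11 at PL and 5.51, 3.92 and 4.82 at W2. Its PL samples were above all MG and W2 samples, and PL replicate 2 lay within the LG range. NOS3 rose by 0.86 ± 0.21 (SE, log2; limma adjusted p = 0.0122) in PL vs MG and fell by 0.81 in W2 vs PL. Median ratio scaling gave 1.49 and −1.49. The genes that were lower in PL vs MG as deposited were the endothelin receptors EDNRA and EDNRB, NOTCH1 and its ligand JAG1. The same 4 were higher in W2 vs PL. After median ratio scaling NOTCH1 (limma adjusted p = 0.0290) and EDNRA (adjusted p = 0.0487) were still called in W2 vs PL. NOTCH1 read 0.0970, 6.53 and 0 units at PL, 6.14 to 8.92 at MG and 8.88 to 20.2 at W2, so that PL replicate 3 lay within the MG range.

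**Figure D5:**
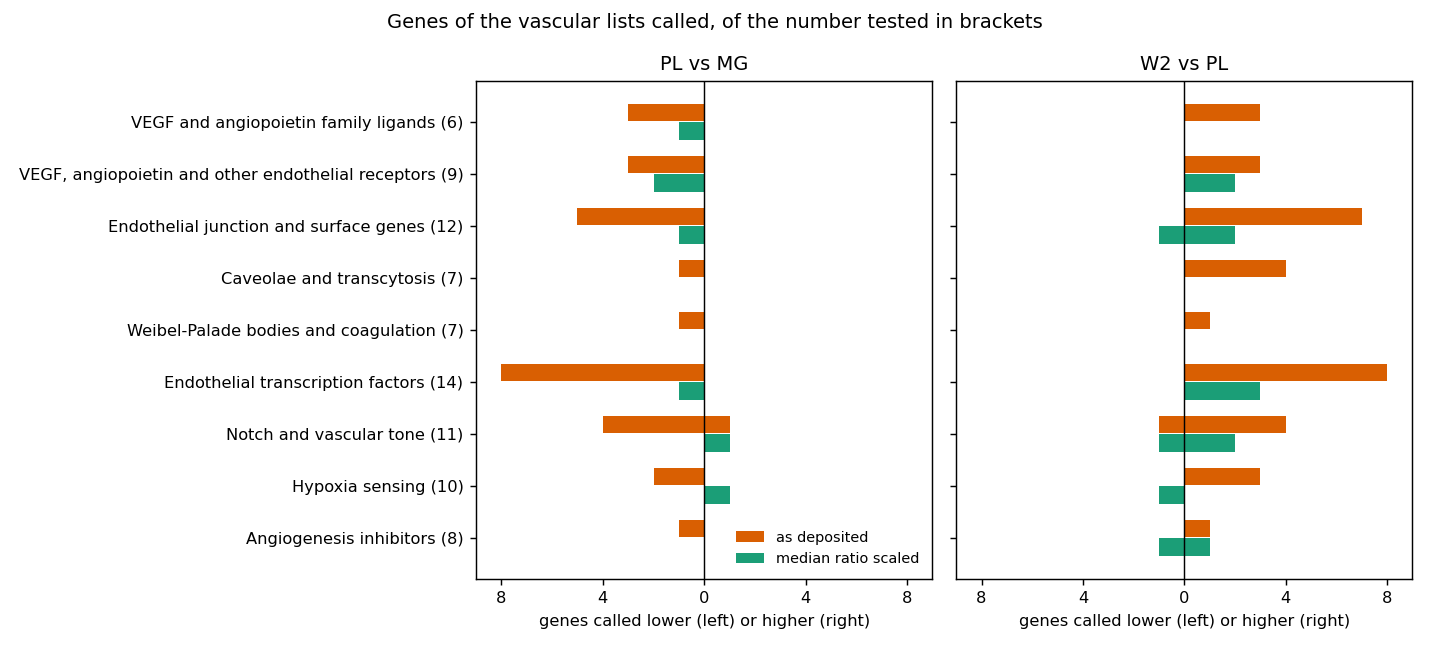
Number of genes called lower (left of 0) and higher (right of 0) in PL vs MG and in W2 vs PL in the 9 vascular lists, with the number tested in brackets, as deposited and after median ratio scaling. The 27 lower and 33 higher genes as deposited become 5 and 10 after the scaling.

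Markers of other cell types moved with PL too. All 4 fibroblast markers (COL1A1, PDGFRA, DCN and LUM) were lower in PL vs MG and higher in W2 vs PL, where 25.2% and 32.8% of all features were called, and their summed level ran from 164 to 461 units at PL, 623 to 893 at MG and 591 to 1014 at W2. Of 5 pericyte and smooth muscle markers 4 did the same, with sums of 59.4 to 73.9 units at PL, 119 to 151 at MG and 137 to 160 at W2, and the 3 macrophage markers with rows, of which 1 was lower in PL vs MG and 2 were higher in W2 vs PL, summed to 5.54 to 14.5, 22.5 to 43.2 and 35.8 to 41.7 units. The 6 luminal epithelial markers summed to 837 to 1766 units at PL, 1343 to 1835 at MG and 1476 to 1992 at W2, with 0 called in PL vs MG and 1 in W2 vs PL (CDH1, higher). The 4 lymphatic markers had 0 called in both, with sums of 7.68 to 12.7 units at PL and 11.2 to 19.3 at MG, and the 3 basal markers with rows had 0 as well, with 100.2 to 399 and 161 to 210 units. Of 3 adipocyte markers LEP was higher in PL vs MG, while in W2 vs PL LEP was lower and LIPE was higher, with sums of 4.37 to 20.4 units at PL and 4.71 to 8.53 at MG. Of 3 platelet markers ITGA2B was lower and PPBP, listed at 0 at MG and W2, was higher at PL in both comparisons, with sums of 1.96 to 5.25 and 2.49 to 3.66 units, and 0 of 2 red cell markers were called, with 46.5 to 92.8 and 132 to 183 units. After median ratio scaling 1 fibroblast, 1 pericyte and 1 macrophage marker were called in each comparison, in the same directions. Of the luminal, basal, adipocyte and platelet markers, 1 each was then higher in PL vs MG and 1 each was lower in W2 vs PL. Of all features 11% and 13.2% were called there. Without PL replicate 2, 1 of the 4 fibroblast, 3 of the 5 pericyte and 2 of the 3 macrophage markers were lower in PL vs MG. In that fit 1 basal, 1 adipocyte and 1 platelet marker were higher. The part of these cell types in the changes of KDR, CAV1 and the lists was not tested.

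The genes whose pattern was most like that of the endothelial genes were ranked by Pearson's correlation with the mean standardised log2 level of PECAM1 and KDR, over the 15 samples and 7697 reference genes with a mean of at least 5 units. The 10 highest were ACP5 (r = 0.931), HIGD1B (0.931), NRGN (0.929), NQO1 (0.919), SREK1IP1 (0.916), VWA2 (0.915), PTK7 (0.915), TGM2 (0.914), IFI35 (0.914) and TM4SF18 (0.914). HIGD1B is known as a pericyte gene and TM4SF18 as an endothelial gene, and the rest of the 10, ACP5 at the top included, were not assigned to vascular cells. Among the 9 genes themselves r ran from −0.45 between TEK and VEGFA to 0.80 between KDR and CAV1. All these values share the scaling of the same 15 samples and are descriptions.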

How the data were processed

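RNA of 30 mammary samples was sequenced from libraries made with a kit that does not mark strand, so that antisense and overlapping genes cannot be told apart. The authors used FastQC and Trimmomatic for read quality and trimming, HISAT2 for alignment to Sscrofa11.1, SAMtools for sorting and StringTie for transcript levels, and kept transcripts of at least 0.5 units in at least 1 stage. The deposited values, called FPKM by the authors, add up as TPM values do and were treated as TPM. RUVs is named for unwanted variation, but whether it was applied to them is not given in the sources used here. The table holds no counts, so that precision rests on the spread between samples, and the values of single transcripts depend on how the assembly divided reads between them.

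Samples were grouped by title. Among transcripts that averaged 10 units or more in a stage, 3 samples of each stage differed from one another by a median of under 5%, and their mean differed from that of the other 3 by 0.689% to 0.741%. They were not counted, which left MG replicates 1, 3 and 6, LG 1, 3 and 4, EL 3, 4 and 6, PL 2, 3 and 6 and W2 2, 3 and 6. Each is a different sow. Transcripts were summed per gene and fitted with limma 3.58.1 (R 4.3.3) on log2(value + 0.5) with trended variance and Benjamini-Hochberg adjustment over all features. The fit was tested on simulated data. Alternatives were a pseudocount of 0.1 or 1, a mean of at least 1 unit, quantile normalisation, and median ratio scaling over transcripts of at least 10 units in every sample. Others were removal of the abundant milk protein, SAA3 and mitochondrial transcripts, a replicate block, the stages compared alone and all 6 samples. The last were the mean of the near-identical samples as 1 further sample, the transcript with the highest mean in place of the sum, and each sample left out. Summaries used Python 3.11.15, numpy 2.4.6 and pandas 2.3.3.

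The genes and lists were chosen with earlier results of these data known. Named list genes were those called in PL vs MG or W2 vs PL, at most 4 a list by the size of the change. In the Notch and vascular tone list all genes called in PL vs MG were named. CDH5, planned as the denominator of ratios and as part of the likeness profile, had no row, so PECAM1 served for the ratios and PECAM1 with KDR for the profile, and ANGPT1 to TEK was not computed since ANGPT1 was listed at 0 in PL replicate 2. Exact permutation of 3 against 3 samples cannot go below p = 0.10, so no 2 stages were compared that way. PL was the only stage tested against the other 12 samples, though the same smallest p holds for each stage.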

Additional observations from a re-analysis of the deposited data

How the results depend on the processing

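Median ratio scaling left 1 gene called in PL vs MG, in PL vs LG, in PL against the other stages, in W2 vs PL and over the 5 stages, and 0 in W2 against the others. It left 0 transcripts called and 7 and 14 list genes in PL vs MG and W2 vs PL. It turned the sign of 7 changes that were not called as deposited, to these log2 values: in PL vs MG 0.52 for VEGFA, 0.34 for FLT1, 0.33 for TEK and 0.092 for VWF, and in W2 vs PL −0.51 for VEGFA, −0.60 for FLT1 and −0.31 for PECAM1. Quantile normalisation left 1 gene in PL vs MG, in PL vs LG and over the stages, 2 in W2 vs PL, 0 in W2 against the others, 0 transcripts, and 10 and 14 list genes, and turned VEGFA (0.44), FLT1 (0.24), TEK (0.31) and VWF (0.0020) in PL vs MG and VEGFA (−0.46), FLT1 (−0.56) and PECAM1 (−0.17) in W2 vs PL. Without the abundant transcripts there were 2 genes in W2 vs PL, 0 in W2 against the others, 0 transcripts, and 14 and 21 list genes, and the turned values were 0.10 for TEK, 0.11 for FLT1 and 0.28 for VEGFA in PL vs MG and −0.24 for VEGFA, −0.35 for FLT1 and −0.030 for PECAM1 in W2 vs PL. Median ratio scaling without PL replicate 2, chosen after seeing the data, gave 1 gene in PL vs MG, PL vs LG and over the stages, 2 in PL vs EL, 0 in W2 against the others, 1 transcript, and 7 and 10 list genes, with turned values of 0.023 for FLT1, 0.13 for VWF and 0.33 for TEK in PL vs MG and −0.29 for FLT1, −0.18 for PECAM1 and −0.031 for VWF, called as deposited, in W2 vs PL. KDR stayed called in PL vs EL under these 4 settings. Under the last of them KDR was not called in PL vs MG (−0.70, limma adjusted p = 0.0677) or W2 vs PL (0.49, adjusted p = 0.185), and the gene called in PL vs MG was CLDN5.

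All 6 samples gave more calls, by construction, since near-identical samples lower the spread: 7 genes over the stages, 6 in PL vs MG, 5 in PL vs LG, 2 in PL vs EL, 4 in EL vs MG, 1 in W2 vs MG, 2 in EL vs LG, 2 in W2 vs LG and 3 in W2 vs EL, with 5, 2, 3, 5 and 5 in MG, LG, EL, PL and W2 against the others, 17 transcripts, 3 of them past the fold threshold, and 57 and 60 list genes. The near-identical mean as 1 further sample gave 4 genes over the stages, 5, 4 and 2 in PL vs MG, LG and EL, 1 in EL vs MG, 2 in W2 vs EL, 1, 5 and 2 in MG, PL and W2 against the others, 7 transcripts, 1 past the fold threshold, and 44 list genes in PL vs MG. Fits of the stages compared alone left 1 gene in PL vs MG and W2 vs PL, 0 in PL vs LG and PL vs EL, 0 transcripts, and 8 and 17 list genes. The transcript with the highest mean left 0 genes in PL vs MG, LG and EL, over the stages and in W2 against the others, 1 in W2 vs PL, and TEK at 0.14 there. A pseudocount of 0.1 gave 0 in W2 against the others, 1 transcript past the fold threshold, and 0.0021 for CLDN5 in W2 vs PL.

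Replicate numbers do not pair the samples, which came from different sows: deviations of 19 pairs with the same number had a mean r of 0.0081 (−0.099 to 0.14), against −0.0022 for 71 other pairs. The replicate block left 0 genes in PL vs LG and PL vs EL and in W2 against the others, 1 transcript, and 18 list genes in PL vs MG. Leaving out each sample gave 2 to 3 genes over the stages, 2 to 4 in PL vs MG, 2 to 3 in PL vs LG, 0 to 1 in PL vs EL (0 without EL replicate 3 or 6), 0 to 1 in W2 vs EL, 2 to 4 in W2 vs PL (2 without PL replicate 2 or W2 replicate 6), 3 to 4 in PL and 0 to 1 in W2 against the others, 1 to 2 transcripts, 0 to 1 past the fold threshold, and 19 to 36 and 26 to 39 list genes. The ratio of CAV1 to PECAM1 at PL ran from −0.55 to −0.42 on the log2 scale. Changes of FLT1 (−0.035 to 0.21) and VEGFA (−0.38 to 0.67) in W2 vs PL, VEGFA (−0.59 to 0.46) in PL vs MG and CLDN5 (−0.33 to 1.00 in PL vs MG, −0.84 to 0.49 in W2 vs PL) turned sign. KDR stayed between −1.72 and −1.16 and CAV1 between −1.22 and −1.04 in PL vs MG. The cause of these changes was not tested. Depth per sample is not in the table, and its part in the values was not tested.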
